A study of Mus musculus with 12 samples.

Results

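The genes of 5 enzymes that act at the outer face of the cell membrane, Mme, Bst1, Dpp4, Entpd1 and Nt5e, were followed in the terminal ileum of 12 mice. They were chosen by name from the 556 genes with values, and all 5 had values in every mouse. Mme was picked from its result between SPF control and GF control mice and Bst1 from its result between SPF PAT and SPF control mice. Dpp4, Entpd1 and Nt5e were added as membrane enzymes of related function, with earlier results of these data known. Comparisons of Mme that hold SPF control or GF control mice, and of Bst1 that hold SPF PAT or SPF control mice, are therefore a description without a test.

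Male C57BL/6 mice at week 7 were either colonized with an SPF (specific pathogen free) microbiota, which the labels call wild-type, or germ-free (GF). PAT mice had received tylosin, a macrolide antibiotic, as 1 early-life course through the dam's drinking water while nursing. Controls had received none. There were 3 mice of each kind (SPF control, GF control, SPF PAT, GF PAT), named here by the numbers in their labels, and the labels give no litter. Total RNA of the whole tissue was assayed on a NanoString nCounter panel of mouse immunology genes, which counts hybridized probes, and the recovered counts per mouse summed to 600308 to 923395. The 3 SPF control mice held the highest totals, from 806043 to 923395. In bulk tissue, fewer cells of a type and less RNA per cell cannot be told apart.

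Ectoenzymes act on peptides and nucleotides outside the cell. Mme encodes neprilysin (CD10), a zinc endopeptidase that degrades small peptides, and Dpp4 encodes dipeptidyl peptidase 4 (CD26), which removes N-terminal dipeptides from incretins and several chemokines. Both proteins are known from the brush border of the small intestine, where peptidases finish the digestion of dietary peptides. Entpd1 (CD39) hydrolyses extracellular ATP and ADP to AMP, Nt5e (CD73) turns AMP into adenosine, and Bst1 (CD157) is a GPI-anchored relative of CD38 that acts on NAD and related nucleotides.

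Mme and Dpp4, the membrane peptidases, had their lowest means in SPF control mice, intermediate means in SPF PAT mice and their highest in both GF groups. Mme read 1134, 1005 and 740 normalized counts in SPF control mice 8, 7 and 2, and 2542, 1784 and 2002 in SPF PAT mice 27, 26 and 21. It read 3725, 5393 and 5095 in GF control mice 39, 38 and 37, and 4674, 4013 and 3880 in GF PAT mice 43, 42 and 41. The 3 SPF PAT mice lay above every SPF control mouse and below every GF mouse, and the GF groups overlapped. On the log2 scale the means were 9.88 ± 0.318, 11.03 ± 0.261, 12.19 ± 0.287 and 12.03 ± 0.143 (SD, n = 3) in the order just given. Mme was thus 4.95-fold higher in GF control than in SPF control mice (95% interval 3.57 to 6.86) and 2.21-fold higher in SPF PAT than in SPF control mice (1.59 to 3.06), as a description.

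Dpp4 kept the same order of groups over a smaller range. Its normalized counts were 9465, 7878 and 6941 in SPF control mice 8, 7 and 2, and 14454, 12832 and 12002 in SPF PAT mice 27, 26 and 21. They were 16140, 21754 and 18886 in GF control mice 39, 38 and 37, and 18313, 17590 and 15947 in GF PAT mice 43, 42 and 41. No SPF PAT value overlapped either SPF control or GF values, and the GF groups overlapped. Dpp4 was 2.34-fold higher in GF control than in SPF control mice (95% interval 1.84 to 2.98), a log2 difference of SPF control minus GF control of -1.23 (SE 0.16, limma, adjusted p = 0.000344). That difference was -0.70 after quantile normalization and -1.67 after median centring, and it passed in all 24 alternatives. Dpp4 rose 1.63-fold in SPF PAT against SPF control mice (1.28 to 2.07), a log2 difference of 0.70 (SE 0.16, adjusted p = 0.0112). This call ended when SPF control mouse 2 was left out (0.60, adjusted p = 0.0512) and under the Tukey test of the study's methods with Benjamini-Hochberg adjustment (adjusted p = 0.0534), and over 24 alternatives its adjusted p ran from 0.00115 to 0.368.

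**Figure D1:**
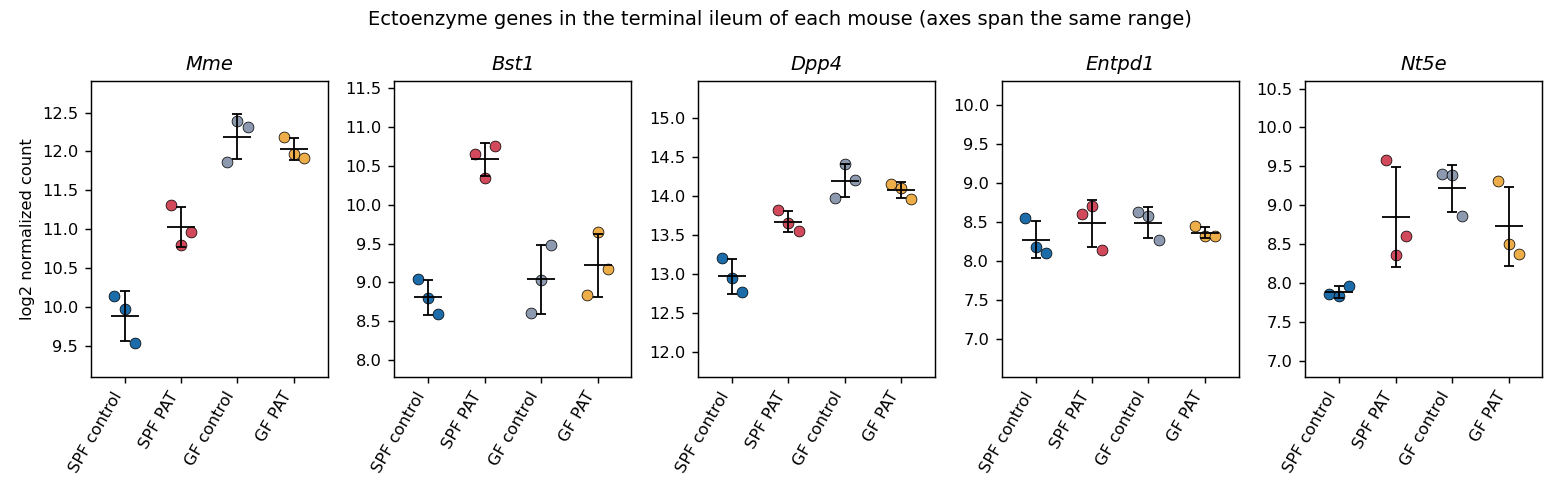
Log2 normalized count (vertical axis) of each gene in each mouse, by group, with 1 point per mouse, a long line at the group mean and bars of ±1 SD (n = 3). The axes span the same range around different levels, and Mme and Dpp4 rise from SPF control through SPF PAT to the GF groups while Bst1 is raised in SPF PAT mice.

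Because Mme and Dpp4 moved together, the 250 bases upstream of their start sites are shown, as given by RefSeq on GRCm38.p6, of which 4 of the 5 members matched an entry. The Dpp4 window is chr2:62412232-62412481 on the minus strand, and the Mme window, for the most upstream of 3 listed starts, is chr3:63294961-63295210 on the plus strand. Both run 5′ to 3′ in the direction of the gene, with matches to the motifs searched in capitals.
Dpp4: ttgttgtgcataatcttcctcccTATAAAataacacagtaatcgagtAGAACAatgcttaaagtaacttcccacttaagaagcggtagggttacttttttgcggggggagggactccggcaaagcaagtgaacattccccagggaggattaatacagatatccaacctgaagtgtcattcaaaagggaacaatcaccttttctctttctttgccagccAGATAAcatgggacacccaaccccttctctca
Mme: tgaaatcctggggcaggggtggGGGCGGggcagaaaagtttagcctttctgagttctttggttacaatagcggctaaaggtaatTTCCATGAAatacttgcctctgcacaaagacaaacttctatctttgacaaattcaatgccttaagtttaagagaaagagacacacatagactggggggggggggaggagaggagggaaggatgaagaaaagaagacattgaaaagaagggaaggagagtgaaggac
The motifs were searched on both strands over windows that run 250 bases before to 50 after the start. They were the TATA box, written TATAAA, and the Sp1 family's GC box, written GGGCGG. Half-sites of HNF1 and of the glucocorticoid receptor were written GTTAAT and AGAACA. Factors of the GATA family had the letters AGATAA, and STAT proteins TTCNNNGAA. Dpp4 held TATAAA with its first base at position -227 from the start, AGAACA at -203 and AGATAA at -32. Mme held GGGCGG at -228 and TTCNNNGAA at -166. A match is given as letters, not as a binding site. The windows shared none of these matches, and in 32851 mouse promoter windows of 300 bases the shares with a match ran from 7.10% for GTTAAT to 35.7% for GGGCGG. The letters TATAAA were in 13.6%, AGATAA in 11.2%, TTCNNNGAA in 8.30% and AGAACA in 19.0%. Both windows were low in GC, at 43.6% for Dpp4 and 45.6% for Mme, beside a median of 52.4% over all windows, while the other Mme starts had 73.2% and 73.6%.

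Across the 12 mice, log2 values of Mme and Dpp4 had a Pearson correlation of 0.99 (Spearman 0.99), given as a description since mice of a group share their condition and both genes share each mouse's scaling. Deviations from the group means still correlated at 0.89. The test of Dpp4 between SPF control and GF control mice is therefore not independent of the choice of Mme. Mouse 8, the highest SPF control mouse for Mme, was also the highest for Dpp4, and mouse 38 was highest of all 12 for both.

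**Figure D2:**
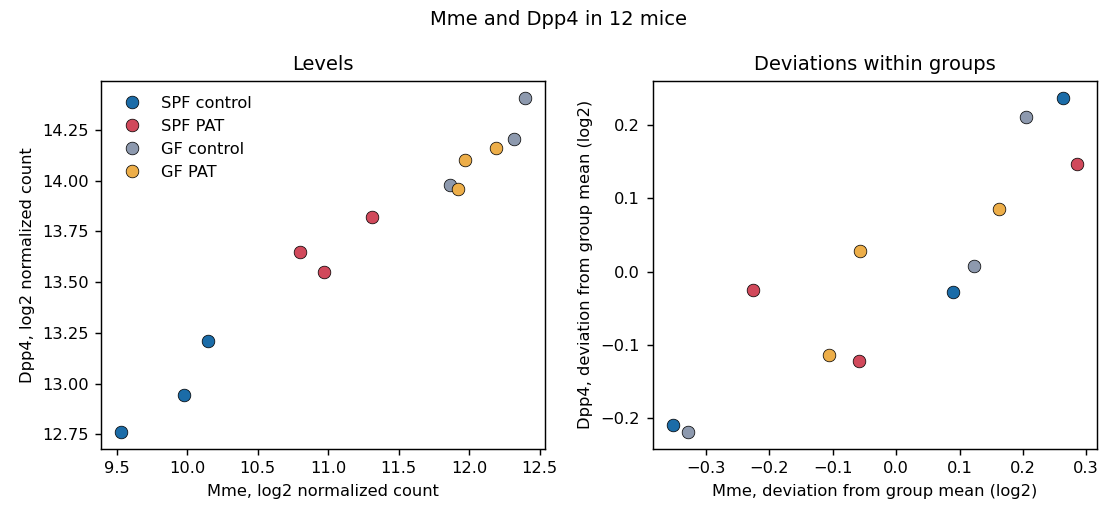
Dpp4 against Mme in the 12 mice, as log2 normalized counts (left) and as deviations from each group's mean (right), with 1 point per mouse coloured by group. The points run along 1 line on the left (r = 0.99), and the order is still visible within groups on the right (r = 0.89).

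Bst1 had another pattern, with its highest values in the SPF PAT mice. It read 528, 445 and 385 normalized counts in SPF control mice 8, 7 and 2, and 1602, 1302 and 1735 in SPF PAT mice 27, 26 and 21. In GF control mice 39, 38 and 37 it read 389, 524 and 714, and in GF PAT mice 43, 42 and 41 it read 457, 800 and 579. Every SPF PAT mouse stood above the other 9 mice, whose 3 groups overlapped one another. The log2 means were 8.81 ± 0.227, 10.58 ± 0.214, 9.04 ± 0.438 and 9.22 ± 0.405 (SD, n = 3) in the same order of groups as for Mme. Bst1 was 3.42-fold higher in SPF PAT than in SPF control mice (95% interval 2.27 to 5.15), as a description. SPF control and GF control mice differed by -0.23 on the log2 scale, with a 95% interval of -0.82 to 0.36.

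SPF PAT mice were also compared with the GF groups. As a description, Bst1 was 2.92-fold higher in them than in the GF control group (95% interval 1.94 to 4.39) and 2.58-fold higher than in GF PAT mice (1.71 to 3.88). Mme was 2.24-fold lower than in the GF control group (1.62 to 3.11), also as a description. Its difference from GF PAT mice, a comparison that did not choose it, missed the threshold (95% interval -1.47 to -0.53 on the log2 scale, limma, adjusted p = 0.0520) and passed in 6 of 24 alternatives (adjusted p 0.0108 to 1). Among these was the fit without GF control mouse 39 (adjusted p = 0.0481). Dpp4 did not pass against GF control (log2 -0.52, adjusted p = 0.195) or GF PAT mice (log2 -0.40, adjusted p = 0.385), and it came past the threshold in 1 of 24 alternatives in each.

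The nucleotide enzymes differed from each other. Nt5e read 231, 227 and 250 normalized counts in SPF control mice 8, 7 and 2, and 768, 328 and 389 in SPF PAT mice 27, 26 and 21. It read 675, 669 and 466 in GF control mice 39, 38 and 37, and 635, 362 and 332 in GF PAT mice 43, 42 and 41. All 9 other mice lay above the SPF control mice, which were close together, while the other groups overlapped and spread widely. Nt5e was 2.52-fold higher in GF control than in SPF control mice (95% interval 1.49 to 4.25), a log2 difference of SPF control minus GF control of -1.33 (SE 0.34, limma, adjusted p = 0.0108), and this call ended under the Tukey test (adjusted p = 0.0789, with 0.00406 to 0.544 over all alternatives). The log2 difference of 0.97 between SPF PAT and SPF control mice did not pass (SE 0.34, adjusted p = 0.0584). It came past the threshold without SPF PAT mouse 26 (1.21, adjusted p = 0.0489) or 21 (1.09, adjusted p = 0.0491), or without GF PAT mouse 43 (0.97, adjusted p = 0.0482), and it fell to 0.60 without SPF PAT mouse 27, the highest of its group (adjusted p = 0.191). Over all alternatives the adjusted p was 0.0321 to 1.

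Entpd1, the enzyme that supplies AMP to Nt5e, passed in no comparison. Its normalized counts were 374, 290 and 273 in SPF control mice 8, 7 and 2, and 389, 419 and 282 in SPF PAT mice 27, 26 and 21. They were 396, 382 and 309 in GF control mice 39, 38 and 37, and 349, 320 and 321 in GF PAT mice 43, 42 and 41. All 4 groups overlapped, and the 12 mice spanned 0.62 on the log2 scale, beside 2.87 for Mme, 2.17 for Bst1, 1.65 for Dpp4, 1.76 for Nt5e and 1.30 for the median gene. SPF PAT and SPF control mice differed by 0.21 (95% interval -0.20 to 0.62, adjusted p = 0.383), and SPF control and GF control mice by -0.22 (-0.63 to 0.19, adjusted p = 0.343). A difference of about 1.54-fold in either comparison would still lie within these intervals, which hold for the values as deposited. After median centring the differences were 0.57 and -0.66, the latter outside its interval. Neither comparison passed in any of 24 alternatives.

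In GF mice, tylosin left no member past the threshold. GF PAT minus GF control log2 differences were -0.16 for Mme, 0.18 for Bst1, -0.12 for Dpp4, -0.13 for Entpd1 and -0.49 for Nt5e, with adjusted p from 0.693 to 0.767 for the 4 members other than Mme. The signs of Mme and Dpp4 turned after quantile normalization and that of Bst1 after median centring. The 95% interval was widest for Nt5e, from -1.24 to 0.27. It ran from -0.64 to 0.31 for Mme, -0.41 to 0.77 for Bst1, -0.47 to 0.23 for Dpp4 and -0.54 to 0.28 for Entpd1. Across all genes limma called 0.0% here, with 28 genes at an unadjusted p under 0.05 and none of them a member, while the Tukey test called 0 and voom 1. With 3 mice per group, these intervals do not exclude changes of the sizes they span.

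The PAT effect in SPF mice minus that in GF mice was tested directly. It was 0.82 on the log2 scale for Dpp4 (SE 0.22, limma, adjusted p = 0.0322), 1.46 for Nt5e (adjusted p = 0.0611) and 0.34 for Entpd1 (adjusted p = 0.323). For Mme and Bst1 the values were 1.31 and 1.60, as a description. The Nt5e difference passed in 8 of 23 alternatives (adjusted p 0.0357 to 0.547), among them the fits without mouse 21, 43 or 37. The Dpp4 call passed in 5 of 12 fits that left out 1 mouse, and it was lost without mouse 27, 26, 7, 2, 42, 41 or 38 (adjusted p up to 0.0844). It was also lost with a linear model and Benjamini-Yekutieli adjustment, and after quantile normalization, where the value fell to 0.34 (adjusted p = 0.256). Over all alternatives its adjusted p ran from 0.00948 to 0.256.

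The numbers of members called were 3 of 5 between SPF and GF control mice (Mme, Dpp4 and Nt5e), 3 of 5 between SPF PAT and SPF control mice (Mme, Bst1 and Dpp4), and 3 of 5 for the difference between PAT effects (Mme, Bst1 and Dpp4). Over all genes 42.1%, 26.3% and 17.1% passed in the same comparisons. Between SPF PAT and GF control mice the count was 2 of 5 (Mme and Bst1), and between SPF PAT and GF PAT mice 1 of 5 (Bst1), beside 2.16% and 1.44% of all genes. Values of these groups took part in choosing Mme and Bst1, so nothing is read from the counts.

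**Figure D3:**
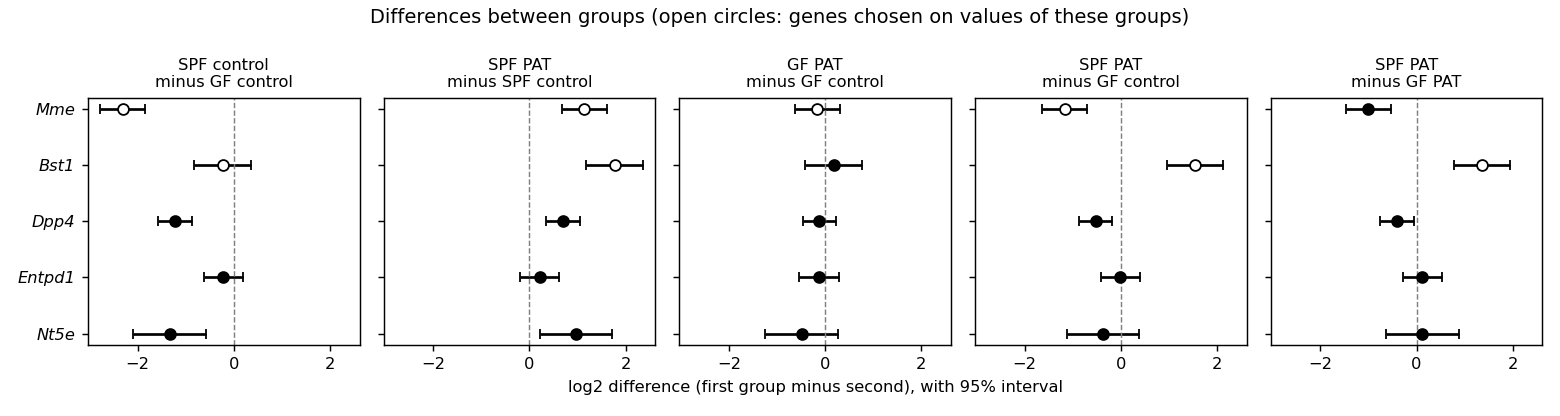
Log2 difference (horizontal axis) of each gene in 5 comparisons, first group minus second, with 95% intervals from limma. Open circles are Mme and Bst1 where the comparison holds a group on whose values they were chosen. In the comparison of GF PAT with GF control mice every interval spans 0.

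The other genes of these pathways were few on the panel. Of 22 further ecto-peptidases and membrane proteases, only Plau, the urokinase protease, and Plaur, its receptor, were measured. Plau was lower in SPF control than in GF control mice (log2 -0.69, adjusted p = 0.0412), and Plaur was not called (0.015, adjusted p = 0.949). None of 30 further genes of extracellular purine and NAD handling had values.

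Of 27 genes whose products DPP4 or neprilysin is known to cleave, 12 were measured, and they changed in both directions. Between SPF control and GF control mice 8 had a higher mean in SPF control mice and 4 a lower one. Of these, 5 passed as higher and 3 as lower, beside 42.1% of all genes called, with a median log2 difference of 0.16 beside 0.08 for all genes. Ccl5, a T cell and eosinophil attractant, was higher (2.87, SE 0.29, adjusted p = 0.000156), as was Cxcl9, a ligand of CXCR3 (1.72, adjusted p = 0.00117). Cxcl11, another CXCR3 ligand, was lower (-2.03, adjusted p = 0.000737). Between SPF PAT and SPF control mice 6 means were higher and 6 lower. Of these, 3 passed as higher and 4 as lower, beside 26.3% of all genes called, with a median of -0.08 beside -0.02 for all genes. Ccl5 fell (-1.97, SE 0.29, adjusted p = 0.00242), Cxcl9 fell (-1.56, adjusted p = 0.00468) and Cxcl11 rose (1.66, adjusted p = 0.00456). App, the amyloid precursor whose peptide neprilysin degrades, rose too (0.66, adjusted p = 0.0124). Median centring lowered the median of all genes by 0.44 in the first comparison and raised it by 0.36 in the second. It gave 4 higher and 4 lower genes of this list in both.

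**Figure D4:**
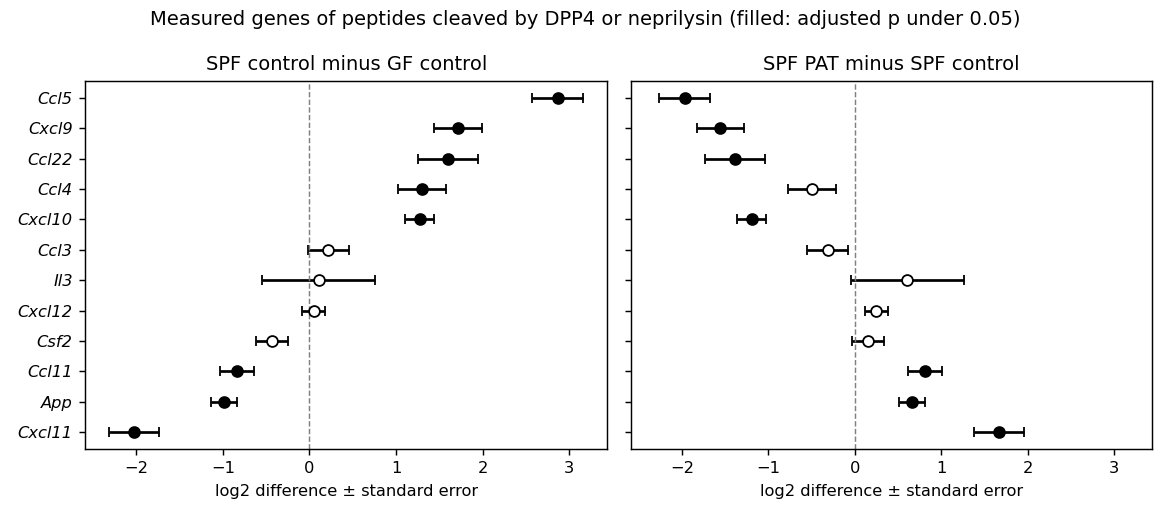
Log2 difference ± SE (horizontal axis) of the 12 measured genes of peptides cleaved by DPP4 or neprilysin, in SPF control minus GF control (left) and SPF PAT minus SPF control mice (right). Filled points have an adjusted p under 0.05. Ccl5 and Cxcl11 lie at opposite ends in both panels. The panels share the SPF control mice.

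Markers of other cells moved in the same comparisons, and their part in the members' values was not tested except as stated. The tissue held the epithelial genes Pigr, the receptor that carries IgA across epithelium, and Itln1, an intestinal lectin, at high counts in every mouse. Of 25 epithelial genes 5 were measured, with summed normalized counts of 117436 to 139084 in SPF control, 112069 to 186738 in SPF PAT, 123741 to 145987 in GF control and 110885 to 131168 in GF PAT mice. Between SPF control and GF control mice 3 means were higher in SPF control mice and 2 lower, of which 1 and 2 passed, beside 42.1% of all genes. In SPF PAT against SPF control mice 4 means were higher and 1 lower, of which 2 and 0 passed, beside 26.3% of all genes. The latter calls were 1 and 0 after quantile normalization and 3 and 1 after scaling to the total count. Abcb1a, an efflux transporter, and Cd9, a tetraspanin, were both lower in SPF control than in GF control mice (log2 -2.82 and -0.92, adjusted p = 1.64e-05 and 0.00355) and both rose in SPF PAT mice (1.76 and 0.64, adjusted p = 0.000765 and 0.0312). Pigr was higher in SPF control than in GF control mice (0.77, adjusted p = 0.0257), a call that ended after median centring and after quantile normalization.

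All 11 measured T cell markers of 12 had higher means in SPF control than in GF control mice. Of these 8 passed, beside 42.1% of all genes. All 11 had lower means in SPF PAT than in SPF control mice, and 7 passed, beside 26.3% of all genes. After median centring 5 passed, and 3 after scaling to the total count. Their summed normalized counts were 1485 to 2428 in SPF control, 484 to 1486 in SPF PAT, 436 to 1050 in GF control and 652 to 1272 in GF PAT mice. The 9 B cell markers summed to 1306 to 7214 in SPF control, 884 to 6215 in SPF PAT, 923 to 3834 in GF control and 2131 to 6168 in GF PAT mice, and no marker of either list was at 0 in every mouse. All 9 B cell means were higher in SPF control than in GF control mice, and 1 passed, beside 42.1% of all genes. After median centring, quantile normalization or scaling to the total count 0 passed. All 9 were lower in SPF PAT than in SPF control mice, and 1 passed, beside 26.3% of all genes. After median centring or scaling to the total count 0 passed. All 9 were higher in GF PAT than in GF control mice, and 0 passed. Markers of macrophages and dendritic cells (7 of 10 measured), neutrophils (5 of 8), endothelium (5 of 8), stroma (6 of 9) and plasma cells (4 of 6) had 2, 3, 1, 1 and 2 genes that differed between SPF and GF control mice, beside 42.1% of all genes. Between SPF PAT and SPF control mice they had 1, 2, 0, 1 and 2, beside 26.3% of all genes. The neutrophil counts were 1 and 0 after median centring or quantile normalization. The endothelial count in the first comparison was 3 after median centring. The other counts moved by at most 2 genes under median centring, quantile normalization or scaling to the total count.

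Entpd1 ran opposite to the B cell markers from mouse to mouse, across groups. The 3 mice with the lowest Entpd1 were SPF control mouse 2, SPF PAT mouse 21 and SPF control mouse 7, with B cell marker sums of 6361, 6215 and 7214. The 3 with the highest were SPF PAT mouse 26, GF control mouse 39 and SPF PAT mouse 27, with sums of 884, 923 and 886. Mice at either end therefore came from several groups, including the same one.

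With the mean of the 9 B cell markers as a covariate, chosen after seeing the data, Entpd1 differed by -0.03 between SPF control and GF control mice (SE 0.09, adjusted p = 0.821) and by -0.01 between SPF PAT and SPF control mice (SE 0.09, adjusted p = 0.951). The standard error had been 0.18 without it, and over all alternatives the adjusted p was 0.102 to 1 and 0.0912 to 1. Dpp4 kept both of its calls, at -1.15 (adjusted p = 0.000505) and 0.62 (adjusted p = 0.0198), as did Nt5e between SPF control and GF control mice (-1.14, adjusted p = 0.0194). The Dpp4 difference between PAT effects did not pass with it (0.66, adjusted p = 0.108). Mme and Bst1 between SPF PAT and SPF control mice were 1.09 and 1.91.

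**Figure D5:**
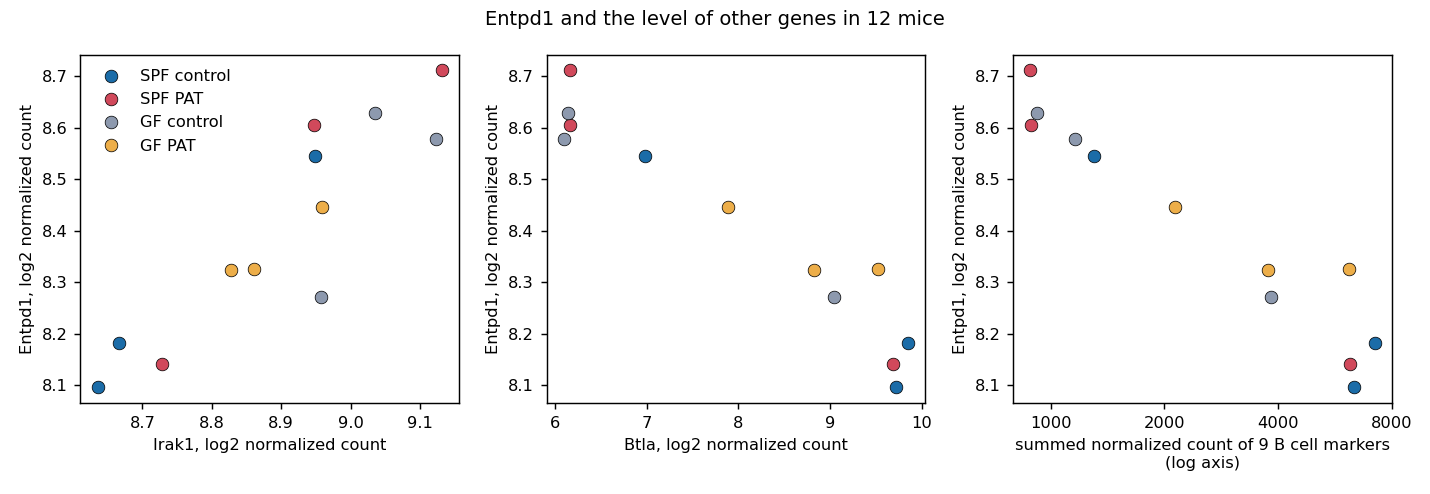
Entpd1 as log2 normalized count (vertical axis) against Irak1 and Btla as log2 normalized counts and against the summed normalized count of 9 B cell markers on a log axis, with 1 point per mouse coloured by group. Mice of the same group lie at both ends of each panel, and Entpd1 is lowest where Btla and the B cell sum are highest.

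The genes most like each member were sought by Pearson correlation over the 12 mice, as a description. They came from 440 genes with a mean normalized count of at least 20, and other members were left out of the lists. Over all mice Mme and Dpp4 were closer to each other (0.986) than to any gene given here, though Dpp4 and Maf came near (0.984). Mme was most like Abcb1a (0.98), the kinase Map4k4 (0.96) and the phosphatase Phlpp2 (0.96), and most opposed to Gzmb, a cytotoxic granule protease (-0.93). Dpp4 was most like the transcription factor Maf (0.98), the cytokine receptor kinase Jak2 (0.98) and Abcb1a (0.98), and most opposed to Ccl5 (-0.94). Within groups, Mme correlated with Abcb1a at 0.65, with Map4k4 at 0.29, with Phlpp2 at 0.65 and with Gzmb at 0.28, of the other sign. The values for Dpp4 were 0.90 with Maf, 0.91 with Jak2, 0.79 with Abcb1a and -0.32 with Ccl5, beside 0.89 with Mme. Within groups Dpp4 was thus no closer to Mme than to Maf or Jak2.

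Bst1 had no gene as close. Its nearest were the adaptor Lcp2 (0.74), Gm10499 (0.74) and Btnl2, a butyrophilin-like protein (0.69), and it was most opposed to Il18rap, a subunit of the IL-18 receptor (-0.72). Within groups these were -0.09, 0.48, 0.67 and 0.01, and its correlations with the other members over all mice were 0.06 to 0.18, and 0.29 to 0.44 after median centring. Entpd1 was most like the kinase Irak1 (0.90), the growth factor Tgfb3 (0.90) and the integrin Itgb1 (0.89), and most opposed to Btla, an inhibitory lymphocyte receptor (-0.96). For Entpd1 the values within groups were as high, at 0.93, 0.89, 0.92 and -0.97. Nt5e was most like Pml, a nuclear body protein (0.90), and the transcription factors Rela (0.89) and Stat6 (0.89). It was most opposed to Ccl22, a chemokine of macrophages and dendritic cells (-0.93). Within groups these were 0.74, 0.75, 0.68 and -0.83.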

How the data were processed

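RNA of the terminal ileum of 12 mice was counted with a NanoString nCounter panel (GX mouse immunology). The authors normalized the counts with DESeq2 and deposited log2 values for 556 genes, and the 28 entries for reference genes and control probes hold no value. Counts were recovered by undoing the log2 and 1 size factor per mouse, and 100% of values above 0 came out whole within 0.01. Size factors were 0.830 to 1.25. A count of 0 is written as 0 on the log2 scale. No member was near it, with recovered counts of at least 278. Whether mice of a group shared a litter or cage is not given in the labels, so p-values measure the spread between these mice.

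Group differences were fitted with limma 3.58.1 in R 4.3.3 on the log2 values, with 1 mean per group, all 12 mice, no covariate and Benjamini-Hochberg adjustment over the 556 genes in each comparison, at a threshold of 0.05. The fits were tested on simulated data. The members, gene lists and comparisons were chosen with earlier results of these data known. All 5 members were named throughout. From the pathway lists, genes with the largest differences past the threshold were named, and Plaur, App and Itln1 beside them, chosen after their values were seen. The likeness rule took the 3 highest correlations and the lowest 1 for each member, among genes other than the members. Alternatives were the methods' Tukey test, the variance model, a fit of only the groups compared, a filter at a mean normalized count of 20, scalings, voom and leaving out each mouse, with the B cell covariate added later.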

Additional observations from a re-analysis of the deposited data

Results flagged for a closer look

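The effect of PAT on Dpp4 differed between SPF and GF mice by a test of the difference itself, with 0.82 on the log2 scale (limma, adjusted p = 0.0322). The value had the same sign when any 1 mouse was left out (0.72 to 0.94), but it passed in 5 of these 12 fits, with adjusted p up to 0.0844. It was also lost after quantile normalization (0.34, adjusted p = 0.256) and with the B cell covariate (0.66, adjusted p = 0.108). A linear model with Benjamini-Yekutieli adjustment lost it too.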

How the results depend on the processing

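Over the 5 members and 6 comparisons, 715 alternative values were computed, of which 654 stayed on their side of the threshold or, where described only, within the spread between mice. Another 15 lost the threshold, 23 gained it, 16 changed sign and 7 of the described values moved by more than that spread. Of these, Mme between SPF PAT and GF control mice was -0.89 after quantile normalization. The other 6 came from median centring, as Mme -2.75 and Bst1 -0.67 between SPF control and GF control mice, 1.50 and 2.13 between SPF PAT and SPF control mice, and 1.85 and 2.14 for the PAT effects' difference. The sign changed only in differences that were not called. Between GF PAT and GF control mice these were Bst1 at -0.0099 after median centring, Mme at 0.018 and Dpp4 at 0.20 after quantile normalization, and Entpd1 at 0.086 with the B cell covariate. With that covariate Entpd1 was also -0.0082 between SPF PAT and SPF control mice, -0.094 for the difference between PAT effects and -0.12 between SPF PAT and GF PAT mice, where Nt5e was -0.12 too. Between SPF PAT and GF control mice Entpd1 was 0.018 after scaling to the total count. Leaving out 1 mouse gave -0.039 to 0.40 for Bst1 between GF PAT and GF control mice, -0.12 to 0.17 for Entpd1 between SPF PAT and GF control mice, and -0.25 to 0.41 for Nt5e between SPF PAT and GF PAT mice. The cause was not tested. The counts of members that follow include Mme and Bst1 where their values are only a description, so nothing is read from these counts. The number of members past the threshold between SPF PAT and SPF control mice was 3. It was 0 with Tukey and Benjamini-Yekutieli adjustment, 2 with Tukey and Benjamini-Hochberg adjustment, 4 with an intensity trend, a minimum mean count of 20, quantile normalization or scaling to the total count, and 2 to 4 when 1 mouse was left out. For the difference between PAT effects it was 3, and 0 with a linear model and Benjamini-Yekutieli adjustment, 1 with the B cell covariate, and 0 to 4 when 1 mouse was left out. There Nt5e came past the threshold in 5 alternatives that kept all mice. Between SPF PAT and GF control mice the number was 2, and 0 under Tukey with either adjustment, with only the groups compared or with median centring, 1 with quantile normalization and 0 to 2 when 1 mouse was left out. Dpp4 came past the threshold there in 1 alternative that kept all mice. Between SPF PAT and GF PAT mice the number was 1. There it was 0 under Tukey with either adjustment, with only the groups compared, median centring or quantile normalization. It was 2 with an intensity trend, a minimum mean count of 20, scaling to the total count, log2 of the count plus 1 or voom, and 0 to 2 when 1 mouse was left out. Of the genes most like each member, 0 of 3 were the same for Mme, Bst1, Dpp4 and Nt5e when deviations from group means were used, and 1 of 3 for Entpd1. No paired analysis was possible because the labels carry no number shared between groups. Each group held 3 mice, and every member had at least 278 recovered counts in each mouse. Whether the number of mice or the depth limits the precision more was not tested.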
